A study of Mus musculus with 8 samples.

Results

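The genes described here encode subunits of CCR4-NOT, the main cytoplasmic deadenylase complex of animal cells, together with the separate deadenylase Parn. They were chosen by name, as 10 genes, and every probe set to which the platform annotation gives exactly 1 gene symbol among them was taken. This gave 32 probe sets for 9 genes, out of 45037 probe sets on the array once control probe sets were set aside. Of these, 34945 carry exactly 1 symbol and stand for 18193 genes. Cnot1, the scaffold of the complex, had 2 probe sets that also carry a second symbol, so no value is given for it. Of the 32 probe sets, 31 lay above the limit for low signal, and a dim Cnot2 probe set, 1445017_at, did not.

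Liver RNA from male C57BL/6 mice of 7 to 10 weeks was measured on 8 Affymetrix arrays, 2 in each of 4 groups. The groups were Tob1 null 24 h after partial hepatectomy, Tob1 null without hepatectomy (0 h), wild type 24 h after partial hepatectomy and wild type without hepatectomy (0 h). In the operation the median and left lateral lobes were removed. Each array carried the pooled RNA of 3 animals that were on no other array, so its value is that of a pool. Precision is set by the small number of arrays. Sham-operated animals are not among the groups, so the loss of liver and the operation itself cannot be told apart. Tob1 is a member of the Tob/BTG family of antiproliferative proteins that binds the catalytic subunits Cnot7 and Cnot8, and the series asks how its loss bears on gene expression in the regenerating liver.

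Messenger RNAs lose their poly(A) tails before most of them are decapped or degraded from the 3′ end. CCR4-NOT shortens the tail with a pair of nuclease families, the Ccr4-type enzymes Cnot6 and Cnot6l and the Caf1-type enzymes Cnot7 and Cnot8, of which one of each type is thought to be in a complex at a time. Cnot1 holds them together with the non-catalytic subunits, and RNA-binding proteins, Tob proteins and the microRNA machinery bring the complex to particular messages.

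The brightest Tob1 probe set was not lower in the arrays labelled Tob1 null. At 24 h, Tob1 1423176_at had log2 signals of 10.66 and 10.58 in null-labelled liver, against 9.87 and 10.20 in wild type. The 0 h signals were 11.10 and 11.03 in null-labelled liver, against 10.46 and 10.53 in wild type. The differences, 0.59 ± 0.16 (SE) at 24 h and 0.57 ± 0.16 at 0 h, did not pass the test (limma, adjusted p = 0.353 and 0.421). A dimmer probe set, Tob1 1440844_at, differed the other way, by -1.30 ± 0.65 and -1.25 ± 0.65 (adjusted p = 0.559 and 0.621). At 24 h it had 2.78 and 3.83 in null-labelled liver, against 4.27 and 4.96 in wild type. At 0 h it had 2.65 and 4.06 in null-labelled liver, against 5.19 and 4.02 in wild type, so the genotypes overlapped. The lower null-labelled value at each time lies below the limit for low signal, so the size of these differences is uncertain. It is not known here if the deletion takes in the sequence that these probes read. The genotype therefore rests on the labels, and the arrays are called null-labelled below. Over both times, replicate arrays correlated at 0.951 to 0.959 across probe sets.

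RNA quality differed between the groups, as did some cell type markers, while other marker sums overlapped between the times. The log2 ratio of 3′ to 5′ actin probe sets was 1.27 ± 0.07 in null-labelled liver at 24 h, against 1.56 ± 0.03 at 0 h, and 0.97 ± 0.09 in wild-type liver at 24 h, against 1.22 ± 0.25 at 0 h (SD, n = 2 arrays each). The same ratio for Gapdh was 0.16 ± 0.12 in null-labelled liver at 24 h, against 0.52 ± 0.02 at 0 h (SD). In wild-type liver it was 0.07 ± 0.10 at 24 h, against 0.23 ± 0.07 at 0 h (SD). All 6 hepatocyte markers measured were present, and their summed linear signal was 58250 to 62080 in null-labelled liver at 24 h, against 57080 to 57350 at 0 h, and 57300 to 61420 in wild-type liver at 24 h, against 54460 to 58660 at 0 h. Of 6 stellate cell markers, 3 were lower at 24 h in the test averaged over genotypes, with sums of 1601 to 1669 in null-labelled liver at 24 h, against 1691 to 2127 at 0 h, and 1540 to 1794 in wild-type liver at 24 h, against 1920 to 2169 at 0 h. The 5 leucocyte markers summed to 422 to 469 in null-labelled liver at 24 h, against 300.2 to 319 at 0 h, and to 320 to 487 in wild-type liver at 24 h, against 352 to 368 at 0 h, and Cd3e was below the limit in every array. The 4 duct markers summed to 122 to 156 in null-labelled liver at 24 h, against 63.2 to 111 at 0 h, and to 159 to 263 in wild-type liver at 24 h, against 119 to 125 at 0 h. The 6 Kupffer cell markers summed to 1950 to 2363 in null-labelled liver at 24 h, against 1969 to 1978 at 0 h, and to 1682 to 2133 in wild-type liver at 24 h, against 1928 to 2175 at 0 h. The 6 endothelial markers summed to 1042 to 1198 in null-labelled liver at 24 h, against 865 to 1065 at 0 h, and to 943 to 1120 in wild-type liver at 24 h, against 1266 to 1285 at 0 h. In the averaged test 1 hepatocyte and 1 leucocyte marker rose and 1 of each fell, 1 Kupffer marker rose and 2 fell, and 1 duct and 1 endothelial marker rose. The part of these shifts in the results below was not tested.

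After quantile normalisation, signal was lower at 24 h after hepatectomy for several deadenylase genes, and the clearest was Cnot6l, which encodes a Ccr4-type nuclease. A probe set passed when its adjusted p was under 0.05, with p adjusted over all 30525 probe sets tested. For the response averaged over both genotypes (24 h minus 0 h), 8 member probe sets fell and 2 rose among the 31 tested, against 23.8% of all probe sets tested that passed, 11.4% lower and 12.4% higher. In 8 member probe sets every array at 24 h lay below every array at 0 h, and in 6 above, against 13.9% and 14.8% of all probe sets. The median log2 difference over the members was -0.12, against -0.02 over all probe sets. The split depended on the scaling. On the deposited scale 4 fell and 3 rose, against 22.8% of all probe sets that passed. After median centring 1 fell and 3 rose, against 21.1% of all, and the median of all probe sets moved to 0.07. In bulk liver, fewer cells of a type and less of a transcript per cell cannot be told apart.

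**Figure D1:**
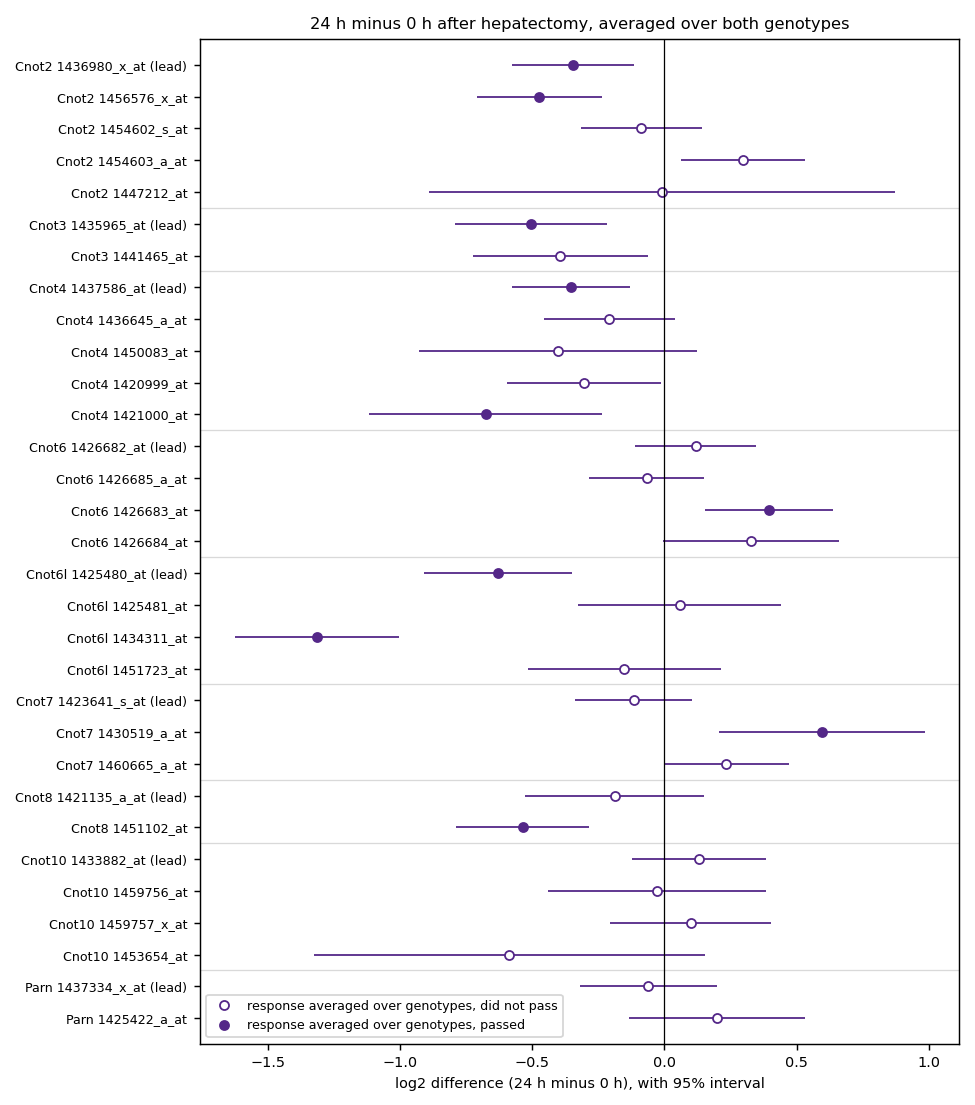
Log2 difference between 24 h and 0 h, averaged over both genotypes, for the 31 member probe sets tested (rows, grouped by gene), with 95% intervals as lines. Filled points passed at an adjusted p under 0.05, 8 of them left of 0 and 2 right of it, and the Cnot6l probe set 1434311_at lies farthest from 0 at -1.32.

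Cnot6l was measured by 4 probe sets, of which 2 fell. Cnot6l 1434311_at had log2 signals of 5.85 and 5.62 in null-labelled liver at 24 h, against 7.08 and 7.22 at 0 h, and of 6.05 and 5.87 in wild-type liver at 24 h, against 7.01 and 7.34 at 0 h. All 4 arrays at 24 h lay below all 4 arrays at 0 h. The averaged difference was -1.32 ± 0.13 on the log2 scale, a signal 2.49-fold lower at 24 h (adjusted p = 0.00433). It passed in each genotype taken alone, at -1.41 ± 0.18 in null-labelled liver (adjusted p = 0.0177) and -1.22 ± 0.18 in wild type (adjusted p = 0.0303).

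The brightest Cnot6l probe set moved less in the same direction. Cnot6l 1425480_at had 7.66 and 7.75 in null-labelled liver at 24 h, against 8.46 and 8.46 at 0 h, and 7.99 and 7.62 in wild-type liver at 24 h, against 8.32 and 8.30 at 0 h. The times did not overlap, and the averaged difference was -0.63 ± 0.11 (adjusted p = 0.0156). The other Cnot6l probe sets, 1451723_at and 1425481_at, differed by -0.15 ± 0.15 and 0.06 ± 0.16 and did not pass, so the probe sets of this gene disagreed in size by more than their errors. Which transcript each one reads was not examined.

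Cnot6, the close paralog of Cnot6l and also a Ccr4-type nuclease, had 1 of 4 probe sets that rose and none that fell. Cnot6 1426683_at had 7.45 and 7.38 in null-labelled liver at 24 h, against 6.76 and 6.98 at 0 h, and 7.12 and 7.20 in wild-type liver at 24 h, against 6.93 and 6.90 at 0 h. The 24 h arrays were all above the 0 h arrays, by 0.40 ± 0.10 on average (adjusted p = 0.0364). The brightest, Cnot6 1426682_at, had 8.42 and 8.41 in null-labelled liver at 24 h, against 8.36 and 8.22 at 0 h, and 8.52 and 8.42 in wild-type liver at 24 h, against 8.34 and 8.37 at 0 h. It too had no overlap between the times, but its difference of 0.12 ± 0.09 did not pass (adjusted p = 0.398). Cnot6 1426684_at and 1426685_a_at differed by 0.33 ± 0.14 and -0.07 ± 0.09 and did not pass either.

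The unequal change of the Ccr4-type pair was tested within arrays, as the log2 signal of the brightest Cnot6 probe set minus that of the brightest Cnot6l probe set. Relative to the mean of the 0 h arrays, this difference was 0.82 and 0.72 in null-labelled liver at 24 h, against -0.04 and -0.18 at 0 h, and 0.60 and 0.85 in wild-type liver at 24 h, against 0.09 and 0.13 at 0 h. The 4 arrays at 24 h averaged 0.75 above those at 0 h, with no overlap. The exact permutation test of 4 arrays against 4 gave p = 0.0286, the smallest that its 70 splits allow. After adjustment over the 4 pair tests it was 0.114, which is above the threshold. A single pair at the smallest p could not pass this correction, so the adjusted value does not decide the question. Between null-labelled and wild-type arrays the same pair differed by -0.09 (two-sided exact permutation p = 0.657, adjusted 0.857).

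**Figure D2:**
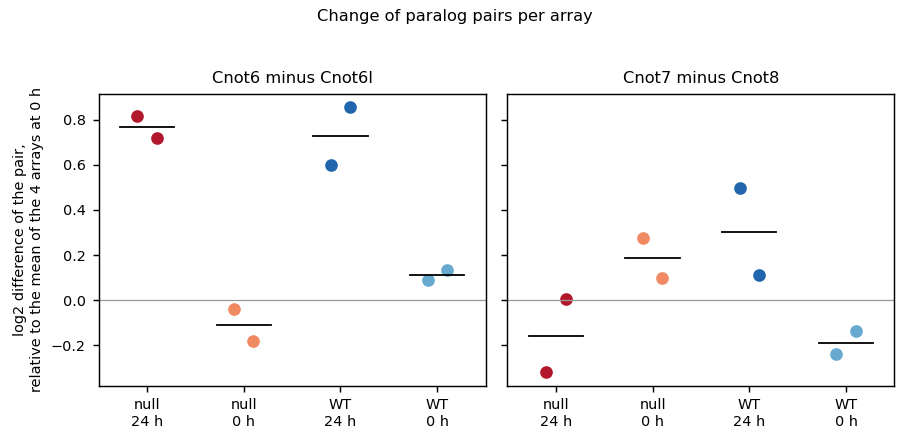
Log2 difference between the brightest probe sets of a paralog pair in each array (points), relative to the mean of the 4 arrays at 0 h, with group means as lines, for null-labelled and wild-type (WT) liver at 24 h and 0 h. For Cnot6 minus Cnot6l the 24 h arrays lie between 0.60 and 0.85 and the 0 h arrays between -0.18 and 0.13. For Cnot7 minus Cnot8 the times overlap over both genotypes together. That pair is lower at 24 h in null-labelled liver and higher in wild-type liver.

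The promoters of the Ccr4-type pair are shown because probe sets of Cnot6l fell while one of Cnot6 rose. Each window runs from 250 bases before to 50 after the annotated start, written 5′ to 3′ on the gene's strand, from RefSeq on GRCm38.p6. Both genes are on the minus strand, Cnot6l at chr5:96161941-96162240 and Cnot6 at chr11:49712673-49712972. Capitals mark GC boxes (GGGCGG or its reverse complement) and the CCAAT box (CCAAT or its reverse complement).
Cnot6l: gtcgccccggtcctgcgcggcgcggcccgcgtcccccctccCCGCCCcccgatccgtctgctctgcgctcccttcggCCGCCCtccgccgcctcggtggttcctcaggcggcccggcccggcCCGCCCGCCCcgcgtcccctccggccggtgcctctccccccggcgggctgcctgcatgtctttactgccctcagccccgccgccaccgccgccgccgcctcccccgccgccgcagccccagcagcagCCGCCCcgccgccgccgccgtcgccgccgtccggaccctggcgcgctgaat
Cnot6: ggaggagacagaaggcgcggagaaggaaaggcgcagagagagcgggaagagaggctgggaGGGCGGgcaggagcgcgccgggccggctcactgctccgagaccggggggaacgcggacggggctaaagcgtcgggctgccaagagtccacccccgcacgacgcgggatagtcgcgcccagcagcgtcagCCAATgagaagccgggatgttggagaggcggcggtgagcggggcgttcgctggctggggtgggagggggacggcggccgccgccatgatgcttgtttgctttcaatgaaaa
The Cnot6l window holds 5 GC boxes, of which 2 overlap each other, and no CCAAT box, whereas the Cnot6 window holds 1 of each. Its GC content, 82.7%, is at the 99.6th percentile of 32851 such windows, against 68.7% for Cnot6 and a median of 52.7% over all. RefSeq lists 3 windows for Cnot6l, of which the first is shown, and 1 for Cnot6, and which start is used in these livers was not measured.

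The motifs are common. On both strands, a GC box is in 35.7% of all windows and CCAAT in 37.4%. For each member gene only the first listed window was searched, although RefSeq lists 4 for Cnot8 and 2 for Cnot2. Of the 8 member genes with a window, 7 have a GC box in the window searched, and that of Cnot8 has none. Cnot3 holds 4 CCAAT boxes, Cnot4 4 GC boxes with 1 E-box (CACGTG) and 1 NRF1 motif, and Cnot10 3 copies of the ETS core (CCGGAAG), where 1 pair of different motifs overlaps. The E-box is in 7.15%, the NRF1 motif in 4.6% and the ETS core in 8.86% of all windows. The E2F motif (TTTNNCGC) is in 5.17% and the cAMP response element (TGACGTCA) in 1.79%, and neither of this pair is in a member window that was searched. These matches describe letters in the windows and say nothing about binding in liver.

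The Caf1-type nucleases Cnot7 and Cnot8, to which Tob1 binds, had mixed probe sets. Cnot8 1451102_at had 6.96 and 6.94 in null-labelled liver at 24 h, against 7.52 and 7.42 at 0 h, and 6.81 and 7.07 in wild-type liver at 24 h, against 7.52 and 7.47 at 0 h. Every 24 h array was below every 0 h array, and Cnot8 1451102_at fell by 0.54 ± 0.10 (adjusted p = 0.0179). The brighter Cnot8 probe set, 1421135_a_at, had 7.82 and 7.62 in null-labelled liver at 24 h, against 7.61 and 7.81 at 0 h, and 7.27 and 7.71 in wild-type liver at 24 h, against 7.94 and 7.82 at 0 h. Its times overlapped and it did not pass (-0.19 ± 0.14, adjusted p = 0.365).

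Cnot7 rose in 1 of its 3 probe sets. Cnot7 1430519_a_at had 6.90 and 7.44 in null-labelled liver at 24 h, against 6.16 and 6.53 at 0 h, and 7.24 and 7.16 in wild-type liver at 24 h, against 6.83 and 6.84 at 0 h. The times did not overlap, the null-labelled pairs were spread widely, and the averaged difference was 0.60 ± 0.16 (adjusted p = 0.0434). The brightest, Cnot7 1423641_s_at, had 8.63 and 8.76 in null-labelled liver at 24 h, against 9.02 and 9.04 at 0 h, and 8.90 and 8.96 in wild-type liver at 24 h, against 8.84 and 8.82 at 0 h. It was thus lower at 24 h in the null-labelled arrays (-0.33 ± 0.13, adjusted p = 0.144) and higher in wild type (0.10 ± 0.13, adjusted p = 0.665), and neither passed. The remaining probe set, Cnot7 1460665_a_at, had 6.51 and 6.64 in null-labelled liver at 24 h, against 6.30 and 6.26 at 0 h, and 6.49 and 6.62 in wild-type liver at 24 h, against 6.44 and 6.33 at 0 h. Its 24 h arrays were all higher, but the difference of 0.23 ± 0.10 did not pass (adjusted p = 0.131). For Cnot7 1423641_s_at, the difference between the genotypes' responses, -0.43 ± 0.18, had an unadjusted p of 0.0539 and an adjusted p of 0.632. At Cnot7 1430519_a_at and 1460665_a_at that difference had the opposite sign, 0.45 ± 0.32 and 0.12 ± 0.19 (adjusted p = 0.747 and 0.891). Cnot7 minus Cnot8 changed by 0.07 at 24 h relative to 0 h (two-sided exact permutation p = 0.714) and by -0.04 in null-labelled relative to wild-type liver (exact permutation p = 0.857). Relative to the mean of the 0 h arrays, the pair was at -0.32 and 0.00 in null-labelled liver at 24 h, against 0.28 and 0.10 at 0 h. In wild-type liver it was at 0.50 and 0.11 at 24 h, against -0.24 and -0.14 at 0 h. The change over time thus had opposite signs in the genotypes, and 0.07 averages over them. That contrast of the pair was not tested.

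The signals whose pattern over the 8 arrays was most like that of Cnot7 1423641_s_at, among the brightest probe sets of 13483 genes, were those of Rarg, Cbx7 and Mtcl1. Their Pearson correlations with it were 0.972, 0.970 and 0.965. Rarg encodes a retinoic acid receptor and Cbx7 a Polycomb protein. The arrays of a group share their condition, and these values describe likeness in 8 arrays without a test.

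Among the non-catalytic subunits, Cnot2 and Cnot3 form the module that joins the C-terminal part of Cnot1. Cnot3 1435965_at had 6.77 and 6.56 in null-labelled liver at 24 h, against 7.43 and 7.42 at 0 h, and 6.53 and 6.80 in wild-type liver at 24 h, against 6.80 and 7.01 at 0 h. The 0 h arrays were all above the 24 h arrays, with the null-labelled arrays at 0 h highest. It fell by 0.50 ± 0.12 averaged over genotypes (adjusted p = 0.0302) and by 0.77 ± 0.17 in null-labelled liver (adjusted p = 0.0424), while the wild-type difference of -0.24 ± 0.17 did not pass (adjusted p = 0.404). The difference between the responses, -0.52 ± 0.24, did not pass (adjusted p = 0.647), and at the other Cnot3 probe set it was 0.34 ± 0.27 (adjusted p = 0.776). Cnot3 1441465_at also differed downward, by -0.39 ± 0.14, and missed the threshold (adjusted p = 0.0861).

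Cnot2 fell in 2 of its 5 probe sets tested. Cnot2 1456576_x_at had 6.98 and 6.79 in null-labelled liver at 24 h, against 7.42 and 7.54 at 0 h, and 6.99 and 7.04 in wild-type liver at 24 h, against 7.37 and 7.37 at 0 h. Cnot2 1436980_x_at had 7.43 and 7.29 in null-labelled liver at 24 h, against 7.80 and 7.71 at 0 h, and 7.34 and 7.44 in wild-type liver at 24 h, against 7.71 and 7.65 at 0 h. In both the times were apart in each genotype, and the averaged differences were -0.47 ± 0.10 (adjusted p = 0.0211) and -0.34 ± 0.09 (adjusted p = 0.0469). The _x_at ending of these names marks probes that may also bind other transcripts, and Parn 1437334_x_at and Cnot10 1459757_x_at share it. How specific the probes of Cnot7 1423641_s_at and Cnot2 1454602_s_at are was not examined. Cnot2 1454603_a_at went the other way, at 0.30 ± 0.10, and did not pass (adjusted p = 0.0725), and the remaining Cnot2 probe sets, 1454602_s_at and 1447212_at, were at -0.09 and -0.01.

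Cnot4, a ubiquitin ligase that associates with the complex, was lower at 24 h in all 5 probe sets, of which 2 passed. Cnot4 1437586_at had 6.77 and 6.91 in null-labelled liver at 24 h, against 7.38 and 7.43 at 0 h, and 7.09 and 7.14 in wild-type liver at 24 h, against 7.24 and 7.27 at 0 h. The times did not overlap and it fell by 0.35 ± 0.09 (adjusted p = 0.0392). Cnot4 1421000_at, a dim probe set, had 4.60 and 4.07 in null-labelled liver at 24 h, against 5.58 and 5.45 at 0 h, and 4.79 and 4.87 in wild-type liver at 24 h, against 5.28 and 4.73 at 0 h. The wild-type arrays overlapped. It fell by 0.68 ± 0.18 on average (adjusted p = 0.0434), by 1.18 ± 0.26 in null-labelled liver (adjusted p = 0.0417), and was at -0.17 ± 0.26 in wild type. The other Cnot4 probe sets, 1436645_a_at, 1450083_at and 1420999_at, were at -0.21 ± 0.10, -0.40 ± 0.22 and -0.30 ± 0.12. For Cnot4 1421000_at the response difference of -1.01 ± 0.36 was the member result with the smallest p in that comparison (unadjusted 0.031), and its adjusted p was 0.601.

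No probe set of Cnot10 or Parn passed. Cnot10, a subunit that docks on the N-terminal part of Cnot1 together with Cnot11, had 6.87 and 7.05 at its brightest probe set, 1433882_at, in null-labelled liver at 24 h, against 6.90 and 6.72 at 0 h, and 6.83 and 6.86 in wild-type liver at 24 h, against 6.67 and 6.81 at 0 h. Its times overlapped (0.13 ± 0.10, 95% interval -0.12 to 0.38), and the others, 1459756_at, 1459757_x_at and the dim 1453654_at, did not pass (-0.03 ± 0.17, 0.10 ± 0.12 and an adjusted p of 0.208). Parn, a poly(A)-specific ribonuclease that also trims small non-coding RNAs, had 7.15 and 7.23 at its brightest probe set, 1437334_x_at, in null-labelled liver at 24 h, against 7.14 and 7.19 at 0 h, and 7.17 and 6.90 in wild-type liver at 24 h, against 7.12 and 7.23 at 0 h. The Parn difference was -0.06 ± 0.11 with a 95% interval of -0.32 to 0.20, and the other probe set, 1425422_a_at, was at 0.20 ± 0.14.

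**Figure D3:**
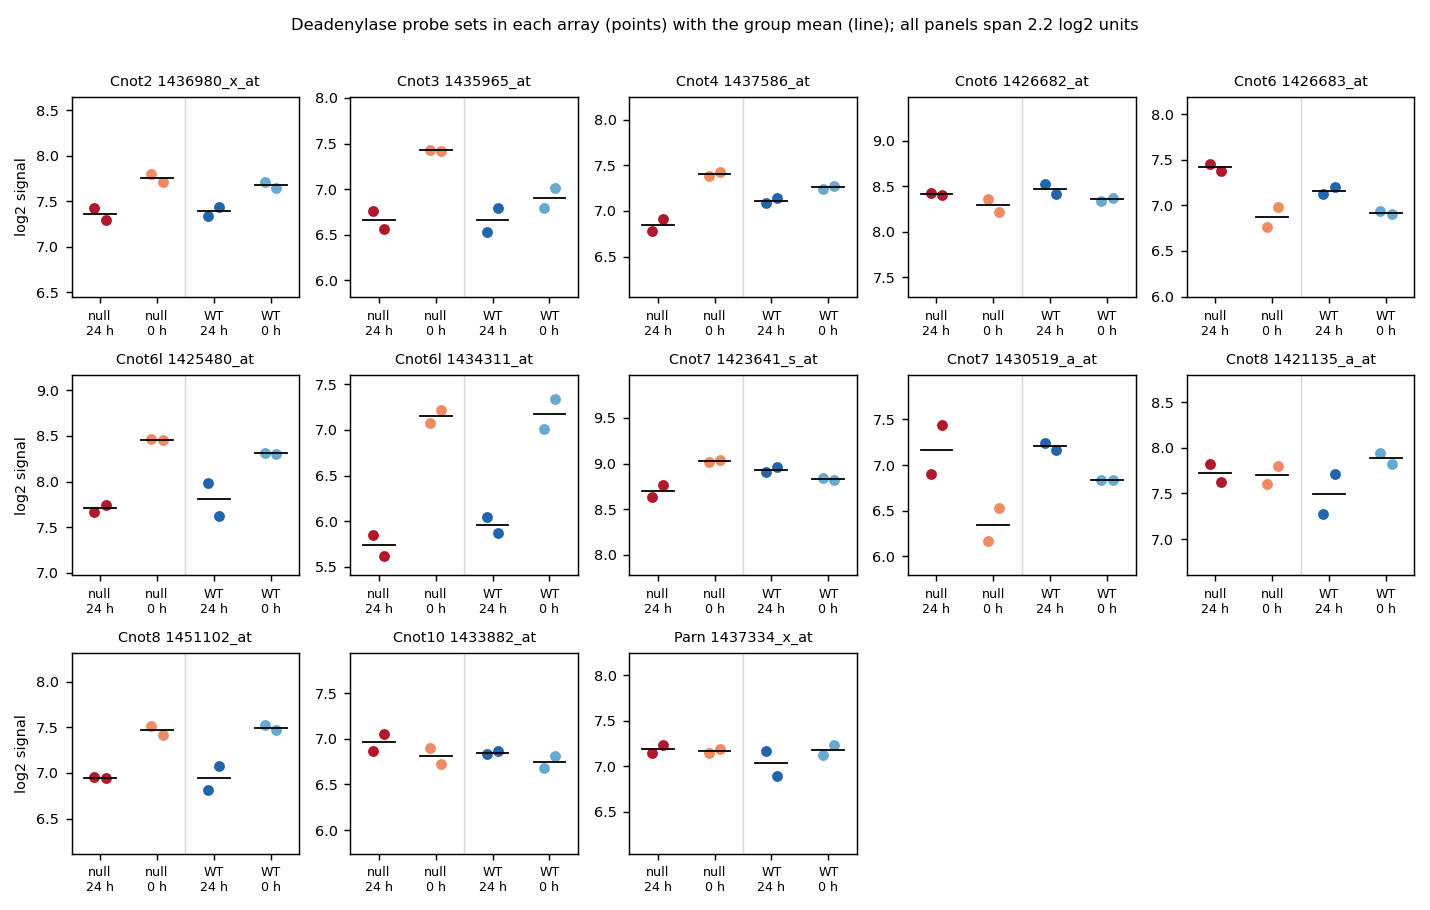
Log2 signal in each array (points) with the group mean (line) for the brightest probe set of each of the 9 genes and for the 4 further probe sets of catalytic subunits that passed in the averaged response, in null-labelled and wild-type (WT) liver at 24 h and 0 h. All panels span the same range of log2 signal, so the wide step of Cnot6l 1434311_at, 5.62 to 6.05 at 24 h against 7.01 to 7.34 at 0 h, can be set beside the flat Parn panel.

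In null-labelled liver taken alone, 6 member probe sets fell and 0 rose, against 10.8% of all probe sets tested that passed (4.72% lower and 6.06% higher). On the deposited scale 1 fell and 2 rose, against 10.7% of all probe sets that passed. After median centring 2 fell and 1 rose, against 9.88% of all. After quantile normalisation the 6 were both Cnot6l probe sets named above, Cnot3 1435965_at, both named Cnot4 probe sets and Cnot2 1456576_x_at. In wild type taken alone, 1 fell and 0 rose, against 5.34% of all (2.7% lower and 2.64% higher). That probe set was Cnot6l 1434311_at. The members' medians were -0.16 in null-labelled liver, against -0.02 over all probe sets, and -0.14 in wild type, against 0.00 over all.

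Each array was also left out in turn, which leaves a lone array in its group. Every member call but that of Cnot6l 1434311_at in the averaged response was lost in some of these fits. Fewer of all probe sets passed for these responses in each of them as well. The probe sets called in the averaged response kept their sign. Cnot6l 1434311_at was at -1.40 to -1.23 and Cnot6l 1425480_at at -0.72 to -0.54. Cnot8 1451102_at was at -0.60 to -0.47 and Cnot3 1435965_at at -0.57 to -0.44. Cnot2 1456576_x_at was at -0.52 to -0.43 and Cnot2 1436980_x_at at -0.38 to -0.31. Cnot4 1421000_at was at -0.81 to -0.54 and Cnot4 1437586_at at -0.39 to -0.32. Cnot6 1426683_at was at 0.34 to 0.45 and Cnot7 1430519_a_at at 0.46 to 0.73. In the single genotypes Cnot6l 1434311_at was at -1.53 to -1.30 in null-labelled liver and -1.38 to -1.05 in wild type.

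The genotype comparison asks whether deadenylase genes differ between null-labelled and wild-type liver. At 24 h, 0 of 31 member probe sets passed in limma, against 0% of all probe sets, and 0 had an unadjusted p under 0.05. At 0 h, 0 passed, against 0% of all, and 1 had an unadjusted p under 0.05. Averaged over both times and for the difference between the responses, 0 passed against 0% of all, with 1 member at an unadjusted p under 0.05 in each. Over all probe sets, 3134 had an unadjusted p under 0.05 at 24 h and 2779 at 0 h. With a trended and robust prior, limma passed 198 probe sets at 24 h, 40 at 0 h, 253 averaged over times and 23 for the difference between responses, of which 0 were members.

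Cnot3 1435965_at was the member with the smallest p at 0 h. It had 7.43 and 7.42 in null-labelled liver at 0 h, against 6.80 and 7.01 in wild type at 0 h (0.52 ± 0.17, 95% interval 0.11 to 0.93, adjusted p = 0.465). The other Cnot3 probe set, 1441465_at, had 5.60 and 5.45 in null-labelled liver at 0 h, against 5.66 and 5.87 in wild type, and so differed the opposite way (-0.24 ± 0.19, adjusted p = 0.745). At 24 h the smallest p belonged to Cnot10 1453654_at, with 3.88 and 2.99 in null-labelled liver, against 2.75 and 2.06 in wild type (adjusted p = 0.498). All of its wild-type values lie below the limit of 3.60, and it was tested because 1 null-labelled array at each time lies above it, so no size is given. For the brightest probe sets of the catalytic subunits at 24 h, the 95% intervals of null-labelled minus wild type were -0.50 to 0.30 for Cnot6l, -0.38 to 0.27 for Cnot6, -0.55 to 0.08 for Cnot7 and -0.25 to 0.71 for Cnot8. The interval for the separate deadenylase Parn was -0.21 to 0.52. The intervals for Cnot2, Cnot3, Cnot4 and Cnot10 all included 0 as well.

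**Figure D4:**
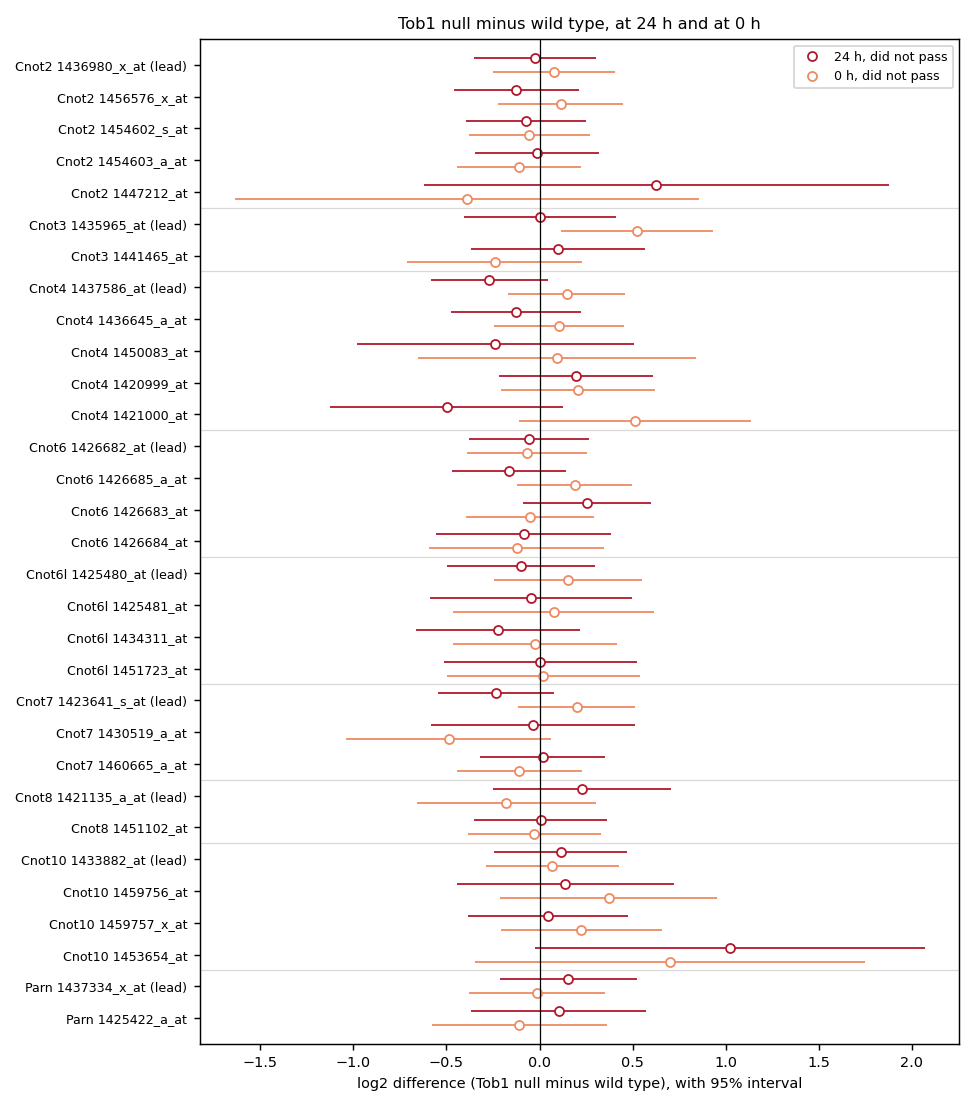
Log2 difference of null-labelled minus wild-type liver for the 31 member probe sets tested (rows, grouped by gene) at 24 h and at 0 h, with 95% intervals as lines. All points are open because 0 passed, and at 0 h Cnot3 1435965_at stands at 0.52.

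The other genes of the pathway are given as the brightest probe set of each gene, for which 25.2% of 14424 genes passed in the averaged response (12.1% higher, 13.1% lower), with a median of -0.04. Of 11 further CCR4-NOT subunits and deadenylases, 2 rose and 2 fell. On the deposited scale 4 rose and 1 fell, against 22.8% of all probe sets that passed. After median centring 3 rose and 0 fell, against 21.1% of all probe sets. The list had a median of -0.10 that changed sign after median centring (0.07) and without some single arrays. Fewer of these genes passed when any 1 array was left out, and fewer of all probe sets passed in those fits as well. Pde12, a mitochondrial deadenylase, rose by 0.81 ± 0.11 (adjusted p = 0.0082), and Toe1, a nuclear deadenylase, by 0.43 ± 0.09 (adjusted p = 0.021). Tnks1bp1, a CCR4-NOT-associated protein, fell by 0.62 ± 0.13 (adjusted p = 0.0237), and Pan3, the partner of the deadenylase Pan2, fell by 0.44 ± 0.11 (adjusted p = 0.0364).

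Of 24 adaptors that bring CCR4-NOT to messages, 6 fell and 1 rose, with a median of -0.36. Ago1, an Argonaute protein of the microRNA pathway, fell by 0.86 ± 0.11 (adjusted p = 0.00707), and Rc3h1, the RNA-binding protein Roquin, fell by 0.77 ± 0.10 (adjusted p = 0.00726). Zfp36, or tristetraprolin, which binds AU-rich elements, fell by 1.02 ± 0.18 (adjusted p = 0.0135). The one that rose, Cpeb1, a regulator of cytoplasmic polyadenylation, had 4.55 and 4.22 in null-labelled liver at 24 h, against 3.12 and 2.40 at 0 h, and 5.30 and 4.17 in wild-type liver at 24 h, against 3.00 and 3.32 at 0 h. All its 0 h values lie below the limit of 3.60 for low signal, so it entered the test through its 24 h arrays and no size is given for its change. Tob1 itself was among those that fell, at -0.45 ± 0.11 for 1423176_at (adjusted p = 0.0349), although its times overlapped. It passed in neither genotype alone (adjusted p = 0.123 in null-labelled liver and 0.135 in wild type). The dimmer Tob1 1440844_at, with some null-labelled values below the limit for low signal, was at -0.02 ± 0.46 (adjusted p = 0.981). When single arrays were left out, the numbers that fell and rose changed, and fewer of all probe sets passed. The median stayed between -0.37 and -0.30 in those fits. On the deposited scale the median was -0.32. After median centring 4 fell and 1 rose, against 21.1% of all probe sets that passed. The median of the list was then -0.22, against 0.07 over all genes. With 16 added on the linear scale it was -0.26, against -0.03 over all genes.

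Downstream of deadenylation, the exosome list stood on the other side. Of 16 genes of the exosome and its partners, 8 rose and 1 fell, with a median of 0.41. Dis3, an exosome nuclease, rose by 0.84 ± 0.14 (adjusted p = 0.0128), Exosc8 by 0.69 ± 0.11 (adjusted p = 0.0102) and Exosc9 by 0.64 ± 0.12 (adjusted p = 0.0181), both core subunits. Exosc5, also a core subunit, fell by 0.65 ± 0.09 (adjusted p = 0.00838). With single arrays left out, fewer of these genes rose, and fewer of all probe sets passed as well. The median stayed between 0.36 and 0.44 in those fits.

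Of 19 decapping and 5′ to 3′ decay genes, 3 rose and 1 fell, with a median of 0.02. Lsm3 and Lsm2, of the ring that binds deadenylated ends, rose by 0.96 ± 0.09 (adjusted p = 0.00418) and 0.68 ± 0.11 (adjusted p = 0.0106). Eif4enif1, which binds the cap-binding protein eIF4E, rose by 0.35 ± 0.09 (adjusted p = 0.0441), and Ddx6, the helicase that links CCR4-NOT to decapping, fell by 0.72 ± 0.10 (adjusted p = 0.00813). Of 11 poly(A)-binding proteins and poly(A) polymerases, 1 rose and 0 fell, with a median of -0.04. The medians of these last lists changed sign without some single arrays. The poly(A) gene that rose was Papola, the canonical nuclear poly(A) polymerase, at 0.57 ± 0.10 (adjusted p = 0.0158). No gene of these lists passed in a comparison of null-labelled with wild-type liver.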

How the data were processed

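Liver RNA of 8 pools of 3 mice was measured on Affymetrix arrays. The authors deposited log2 values, a scale inferred from their range and steps. The sources used here do not name the algorithm behind them. Quartiles differed between arrays by 0.62 (25th), 0.38 (50th) and 0.17 (75th), so the values were quantile normalised. Probe sets above the 40th percentile of their array (a limit of 3.60) in at least 2 arrays were kept. The limma 3.58.1 package (R 4.3.3) estimated one mean per group from the 8 arrays together (4 residual and 2.04 prior degrees of freedom), two-sided, with Benjamini-Hochberg adjustment over 30525 probe sets and a threshold of 0.05. Errors after ± are SE unless marked SD.

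All member probe sets are named. The brightest probe set of a gene has the highest mean over the arrays. From each pathway list, up to 4 genes with the smallest p among those that passed are named. Likeness was the Pearson correlation. The members and lists were chosen with earlier results of these data known, so they are no independent support. Paralog pairs were compared by exact permutation. The fit was tested on simulated data. Replicate numbers did not pair the arrays: deviations of same-numbered arrays correlated at -0.17 to 0.06. Probe sets with several symbols or none were tested in the fit and are not named. Alternatives covered normalisation, filter, prior, array weights, a replicate block and each array left out.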

Additional observations from a re-analysis of the deposited data

How the results depend on the processing

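The counts of member probe sets that passed depended on most choices, and no result that passed reversed in any alternative. In the order null-labelled response, wild-type response and averaged response, the counts were 6, 1 and 10. The shares of all probe sets that passed, in the same order, were 10.8%, 5.34% and 23.8%. On the deposited scale the counts were 3, 1 and 7 (all: 10.7%, 4.42% and 22.8%). After median centring they were 3, 1 and 4 (all: 9.88%, 3.21% and 21.1%). With 16 added on the linear scale they were 9, 2 and 10 (all: 17.1%, 11.9% and 28.7%). Without the filter they were 0, 0 and 2 (all: 0.158%, 0.0266% and 8.46%). With the filter at the 60th percentile, which kept 29 members, they were 10, 2 and 12 (all: 28.2%, 20.1% and 42.8%). With 1 probe set per gene (9 genes) they were 3, 0 and 4 (all: 14.7%, 9.26% and 28.8%). With a trended and robust prior they were 9, 3 and 10 (all: 19.3%, 14.9% and 29.8%). With array weights they were 2, 1 and 10 (all: 8.18%, 7.94% and 23.8%). With the replicate number as a block they were 1, 0 and 5 (all: 2.31%, 0.0197% and 17.6%). With only the groups compared in the fit they were 0 and 0 for the single genotypes (all: 0% and 0%). Leaving out each array in turn never raised the counts of members and always lowered those of all probe sets. In those fits the lone array of a group was assumed to vary like the others. Counts over all probe sets ranged from 0 to 5906, 0 to 4536 and 3336 to 9084. Cnot6l 1434311_at passed in the averaged response in all 16 alternatives that could test it, and each of the other 9 probe sets lost its call in at least 1. No alternative passed a member in a comparison of genotypes or of responses. That includes a fit at 24 h with crossed replicate numbers, added after seeing the data because same-numbered deviations correlated at -0.17 there. Over 73 results for single probe sets and 1280 alternative values, 161 values lost their call, 2 gained one, and 36 that had not passed changed sign. Cnot6 minus Cnot6l over time ranged from 0.69 to 0.80. Cnot7 minus Cnot8 changed sign over time on the deposited scale, after median centring and without 2 of the arrays, and the genotype differences of both pairs changed sign without some arrays. A single pair at the smallest possible p adjusts to 0.114, so the side of the threshold says nothing of stability there. Median centring moved the median of all probe sets to 0.11 and that of the members to 0.08 in the null-labelled response. The cause of these changes was not tested. Dim probe sets such as Cnot10 1453654_at lie near the limit for low signal, which limits what their differences can show.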
